A study of Homo sapiens with 8 samples.

Results

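OR51B5 and 9 genes beside it on chromosome 11 were examined in Hct116 cells, 10 of the 23459 genes in the deposited table of read counts. The set holds 6 olfactory receptor genes (OR51B5, OR51B4, OR51B2, OR51B6, OR51I1 and OR51I2) and 4 genes of the beta-globin locus (HBE1, HBG1, HBG2 and HBB). Members were matched by symbol, and each symbol was found in 1 row. The set was chosen by measured values, the high counts of OR51B5 over the 8 libraries, so that levels are given as a description. By the stated rule the comparison of treatments did not enter that choice, and it was tested. Earlier results of these data were known when the set was chosen.

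Hct116 is an established human colorectal carcinoma line of epithelial origin. Total RNA was sequenced after 16 h with 30 μM lenalidomide or with the same amount of its solvent DMSO, in 4 libraries per treatment. The sources describe the replicates both as biological and, for the mass spectrometry of the same cells, as technical, so that p-values measure the spread between these libraries, whatever its origin. By the study's methods, the medium was exchanged at the start of both treatments for one with isotope-labelled arginine and lysine, and in 2 of the 4 replicates the labels were swapped. Which libraries these were is not given in the sources used here. Library totals ran from 28218471 to 37473413 counts, and the lenalidomide libraries were the smaller ones (two-sided exact permutation test of 4 against 4 totals, p = 0.0286, the smallest the design allows).

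The beta-globin locus is a cluster of globin genes arranged in the order of their use in development. HBE1 encodes the embryonic epsilon chain, HBG2 and HBG1 the fetal gamma chains, and HBB the adult beta chain of haemoglobin. In red cell precursors a distant enhancer, the locus control region, lies between HBE1 and the receptor genes and drives the globin genes one after another. On both sides the locus is embedded in olfactory receptor genes, which encode G protein-coupled odorant receptors and are best known from the nasal epithelium, where a neuron uses a single one of them. Lenalidomide, which redirects the CRL4-CRBN ubiquitin ligase, is known to raise fetal globin in cultured erythroid cells.

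In the colon line, 6 of the 10 genes passed the filter on low counts and had reads in every library, and 4 did not pass. In bulk RNA, fewer cells that use a gene and less RNA per cell cannot be told apart. The annotation shows what 3 of the 6 share. By GENCODE release 44 for GRCh37, which is the same build as the hg19 of the deposited counts, OR51B5, HBE1 and HBG2 each have long transcripts that begin at nearly the same place on the minus strand of chromosome 11, far upstream of the coding parts. The distal exon of OR51B5 and HBE1 lies at chr11:5526799-5526882. In full or in a shorter form, it is the first exon of 4 of 5 OR51B5 transcripts and of 2 of 3 HBE1 transcripts. In HBG2, 1 of 3 transcripts begins with an exon at chr11:5526581-5526835, which overlaps it but ends at another splice donor. These transcripts spanned 162.7 to 202.2 kb for OR51B5, 237.3 kb for HBE1 and 252.4 kb for HBG2, whereas their spliced lengths were 810 to 1376, 913 to 918 and 694 bases.

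The junctions of these long transcripts are shown because they join the receptor gene and the globin genes to the same distal region. Each line gives 15 bases of the distal exon in capitals, followed by 15 bases of the next exon in lower case, read 5′ to 3′ on the minus strand of GRCh37. The capitals are the same for OR51B5 and HBE1.
OR51B5: CAGCTATGTGGAACTatgttgagaaggaac
HBE1: CAGCTATGTGGAACTatagatgaggagcca
HBG2: TCTTCCGTTCATGAGgctcctggttgtcta

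The next exon lay at chr11:5368106-5368140 for OR51B5, at chr11:5291029-5291386 for HBE1 and at chr11:5275522-5275744 for HBG2. For HBE1 this exon holds the start of the usual globin coding part, so that the long transcript contains the same 92 coding bases of that exon as the standard one. For HBG2 the distal exon is joined to the middle globin exon, the first globin exon is skipped, and 150 instead of 223 bases of the middle exon are annotated as coding. For OR51B5, 1 of the 4 long transcripts has its last exon at chr11:5364172-5364859, which overlaps the receptor's coding exon (chr11:5363816-5364754). That last exon holds 583 coding bases, against 936 in the coding exon, and the transcript is annotated as a non-stop decay transcript. The other 3 end in exons outside the coding exon and have no annotated coding part. The table gives 1 count per gene, so that reads of the long and the standard transcripts of a gene cannot be told apart.

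OR51B5 (Entrez gene 282763, exonic width 1934 bases in the table) encodes an odorant receptor and had the most counts of the set, 4406 to 5530 per library. With DMSO it had 145, 153, 138 and 146 CPM in replicates 1 to 4, and with lenalidomide 149, 150, 145 and 153. CPM are the usual depth-scaled counts, here divided by the library total times edgeR's TMM factor. The 8 values lay close together, with a coefficient of variation of 3.29%, and both treatments overlapped. Per length, at 76.1 ± 2.51 RPKM (CPM per kilobase of exonic width; SD, n = 8), OR51B5 ranked 853 among the 23459 genes.

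HBE1 (Entrez gene 3046), the embryonic globin, had 69.3, 84.0, 58.5 and 77.2 CPM with DMSO and 73.2, 74.7, 74.4 and 72.4 CPM with lenalidomide. Its DMSO values scattered more, with an SD of 10.9 against 1.06 CPM, and they enclosed all 4 lenalidomide values. Per length it stood at 76.3 ± 7.56 RPKM (SD, n = 8), beside OR51B5, and the ranges of the 2 genes overlapped. HBG2 (Entrez gene 3048), a fetal globin, had 59.5, 55.9, 67.4 and 54.0 CPM with DMSO and 57.2, 64.5, 54.6 and 57.1 CPM with lenalidomide. Again the treatments overlapped, and DMSO replicate 3, lowest of the 8 for HBE1, was highest for HBG2. By its deposited exonic width of 1979 bases, its level per length was 29.7 ± 2.43 RPKM (SD, n = 8), below the range of OR51B5 and HBE1.

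HBG1 (Entrez gene 3047), the other fetal globin, was at 0 counts in all 8 libraries. A count of 0 allows up to 3 counts in a library, which is 0.0792 to 0.104 CPM, for counting error only. Against that limit, taken over the whole exonic width of HBG1, HBG2 was at least 162-fold higher than HBG1 per length in each library. Both genes nearly share their coding sequence, with 439 of 441 bases identical. Of the stretches of 50 bases in the 3 standard HBG1 exons, 266 of 440 (60.5%) occur letter for letter in those of HBG2, and 174 do not. The sources used here name default parameters of QuasR and do not state how reads that match both were counted. If such reads were dropped or given to HBG2, less of the HBG1 width could hold counts. The bound of 162-fold would then be lower. The exonic width of HBG2 in the table, 1979 bases, was far above its spliced standard transcript of 586 bases, and that of HBG1 was 584 bases, so that the models used for counting are wider than that HBG2 transcript. HBB (Entrez gene 3043), the adult globin, had 1 count in lenalidomide replicate 2 and 0 in the other 7 libraries.

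**Figure D1:**
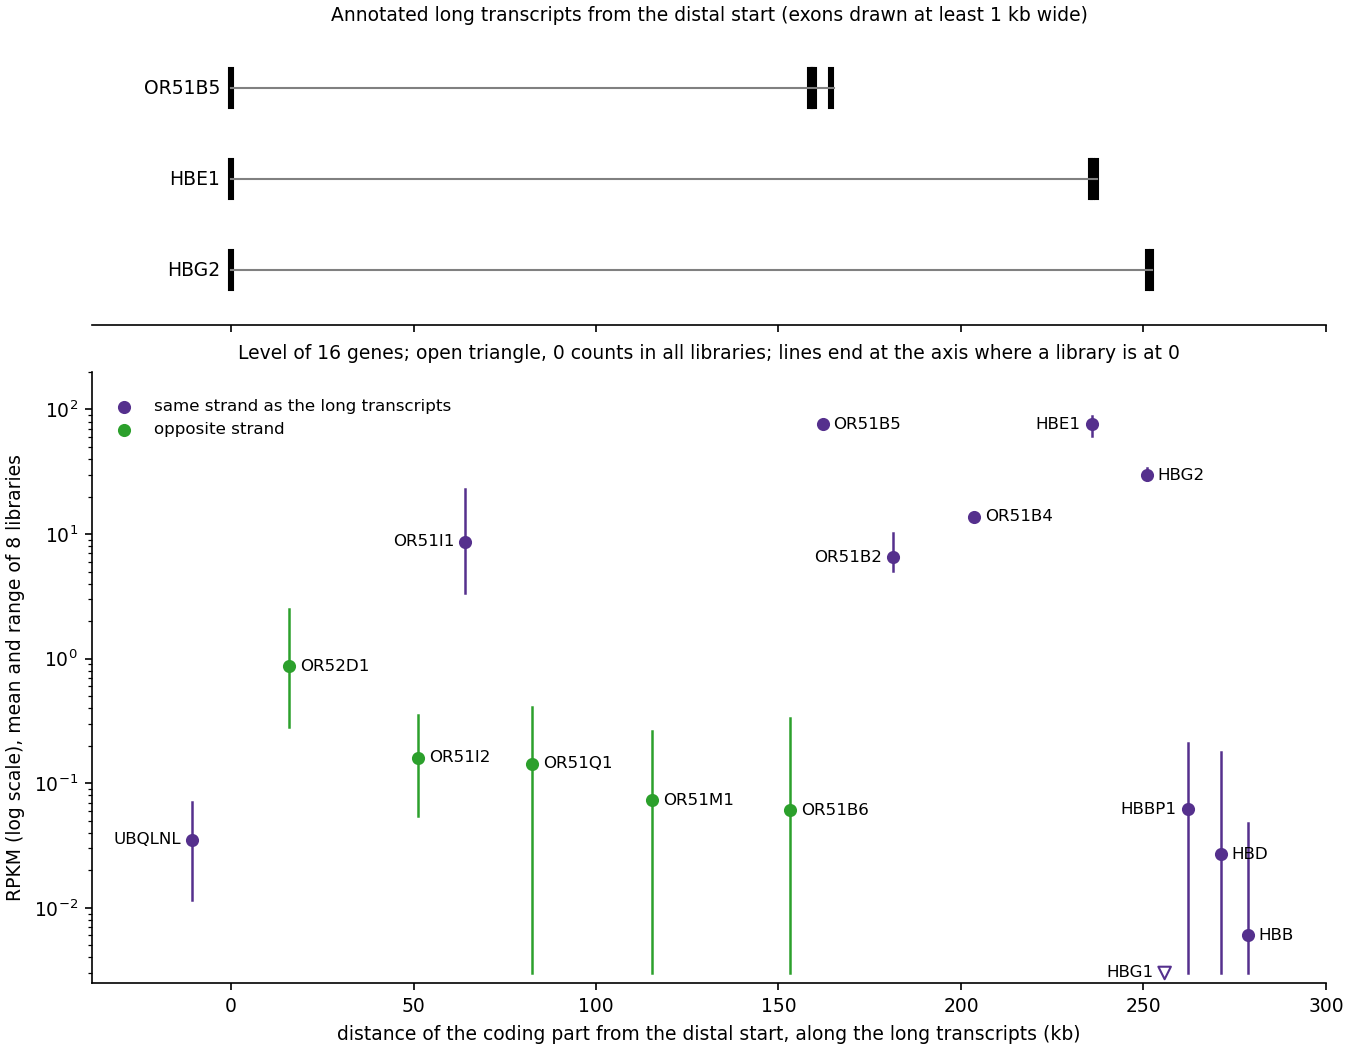
The upper panel draws 1 annotated long transcript each of OR51B5, HBE1 and HBG2 by distance from their distal start in kb, with exons as black boxes. The lower panel plots RPKM on a log scale (points, means; lines, range of 8 libraries) for 16 genes by the distance of their coding part from that start. OR51B5 and HBE1 are near 76 RPKM, and HBG1 and HBB at the far end are at or near 0.

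The receptor genes of the set differed by strand (the map of levels by distance from the distal start). Of the olfactory receptor genes in the table that lie between the distal start and HBE1, OR51B4, OR51B2, OR51B5 and OR51I1 are on the strand of the long transcripts. Their mean levels were 13.8, 6.53, 76.1 and 8.65 RPKM. OR51B6, OR51I2, OR51M1, OR51Q1 and OR52D1 are on the opposite strand and had means of 0.0608 to 0.872 RPKM. The lowest single library of the first 4 genes, 3.38 RPKM for OR51I1, was above the highest of the other 5, 2.51 RPKM for OR52D1. This grouping was chosen after the values were seen and has no test, and the counting is not stated to use strand.

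OR51B4 (Entrez gene 79339; chr11:5322244-5323176) has a single exon and lies in the introns of the long HBE1 and HBG2 transcripts. It had 13.7, 13.0, 12.1 and 12.3 CPM with DMSO and 12.7, 12.2, 13.3 and 13.7 CPM with lenalidomide, a coefficient of variation of 4.99% over 8 libraries with full overlap of the treatments. OR51B2 (Entrez gene 79345; chr11:5344589-5345527), which the table names as a gene or pseudogene, had 6.42, 6.54, 5.58 and 6.70 CPM with DMSO and 5.84, 5.34, 7.99 and 10.7 CPM with lenalidomide. Lenalidomide replicates 3 and 4 were above the 4 DMSO values, and lenalidomide replicate 2 was below them.

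OR51I1 (Entrez gene 390063; chr11:5461800-5462744) lies 64.1 kb from the distal start, in an intron of the long transcripts of all 3 genes. It had 3.43, 5.19, 6.08 and 8.08 CPM with DMSO and 9.53, 5.37, 8.91 and 23.5 CPM with lenalidomide. Lenalidomide replicates 1, 3 and 4 were above the 4 DMSO values and replicate 2 was among them. Replicate 4 alone was far above the rest. With a coefficient of variation of 71.9%, OR51I1 was the most variable of the 6 genes that passed the filter.

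OR51I2 (Entrez gene 390064) and OR51B6 (Entrez gene 390058) are odorant receptor genes on the plus strand, inside the same introns. OR51I2 had 5, 5, 2 and 6 counts with DMSO and 7, 2, 7 and 11 with lenalidomide. OR51B6 had 0, 1, 0 and 2 counts with DMSO and 2, 0, 0 and 9 with lenalidomide. Both were highest in lenalidomide replicate 4. For OR51B6 the other 7 libraries, and for OR51I2 1 library of each treatment, were within the 3 counts that a count of 0 allows.

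**Figure D2:**
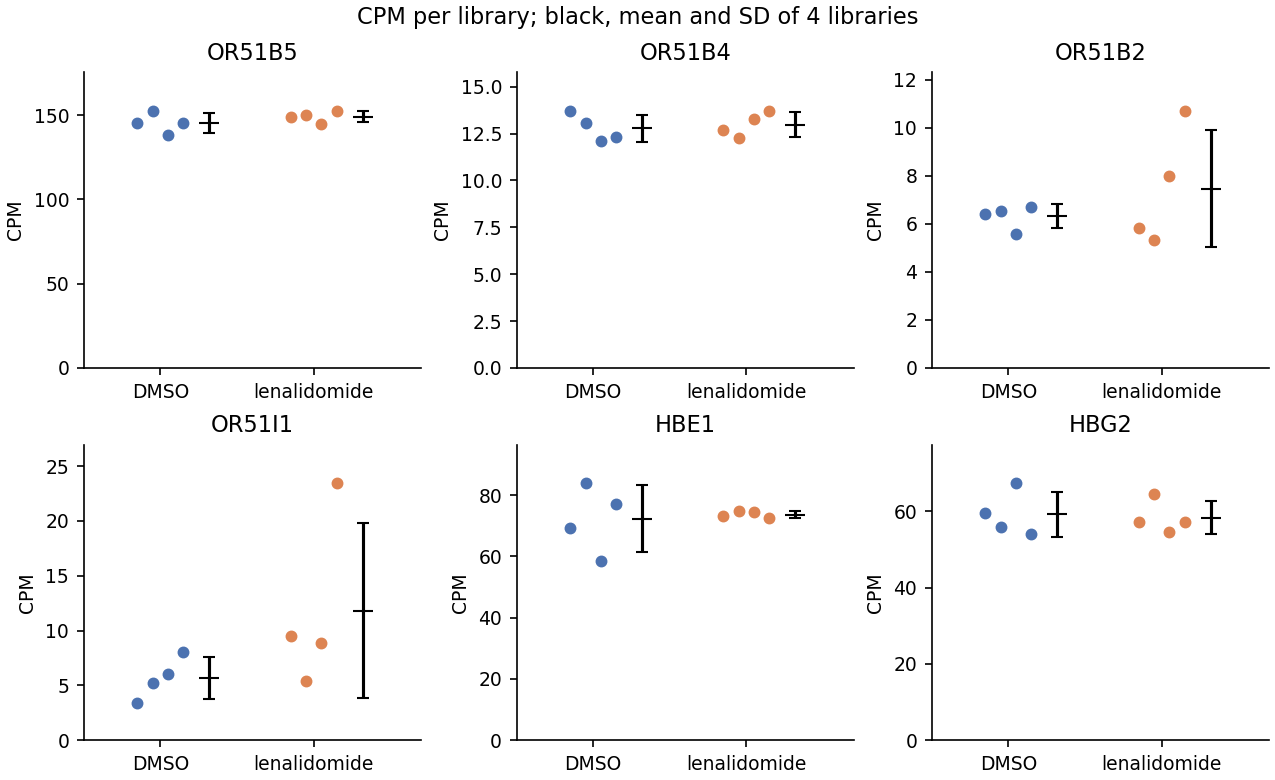
CPM of the 6 genes that passed the filter, 1 panel per gene with its own axis from 0, as 1 point per library (blue, DMSO; orange, lenalidomide), with the mean and SD of 4 libraries in black. OR51B5 stays between 138 and 153 CPM, whereas OR51I1 reaches 23.5 CPM in 1 lenalidomide library.

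The order of the levels per length was HBE1, OR51B5, HBG2, OR51B4, OR51I1, OR51B2, OR51I2, OR51B6, HBB and HBG1. HBE1 and OR51B5 did not differ beyond their spread, nor did OR51B4 and OR51I1, OR51I1 and OR51B2, or any neighbours after OR51I2. The 8 values of OR51B5 were all above those of HBG2 (2.56-fold in the means), those of HBG2 above those of OR51B4 (2.15-fold), and those of OR51B2 above those of OR51I2 (40.8-fold). RPKM depend on the exonic widths of the table. GENCODE gives OR51B5 a wider set of exons, 3965 bases in all, and a coding exon of 939 bases. For HBG2 it gives a narrower set, 841 bases against the deposited 1979, and for HBE1 961 against 956. A narrower width would raise the RPKM of HBG2. The places of OR51B5 and HBG2 in the order, and the fold values with them, therefore hold for the deposited widths only.

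The sequences of the receptor genes were compared to see whether reads could match more than one of them. No stretch of 50 bases in the annotated exons of OR51B5, OR51B4, OR51B2, OR51B6, OR51I1 or OR51I2 occurs at another place on chromosome 11. The coding parts of the 4 OR51B genes were 69.5% to 71.3% identical to each other, and OR51I1 and OR51I2 were 64.3% identical. By position, 35 of 3587 such stretches of OR51B5 also belong to HBE1, in the shared distal exon.

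Among all 390 olfactory receptor genes in the table, OR51B5, OR51B4, OR51I1 and OR51B2 held the first 4 ranks by RPKM. Next were OR2A4 (0.898 RPKM), OR52D1 (0.872 RPKM), OR2A7 (0.589 RPKM), OR51I2 (0.160 RPKM), OR51Q1 (0.143 RPKM) and OR51M1 (0.0731 RPKM). The receptors OR52D1, OR51Q1 and OR51M1 lie inside the long transcripts too, on the other strand. OR51B5 held 81.3% of all olfactory receptor counts (70.4% to 85.4% per library), and the 6 receptors of the set together 96.9%. Of the 390 genes, 117 had no count in any library, and the median total over 8 libraries was 2 counts.

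**Figure D3:**
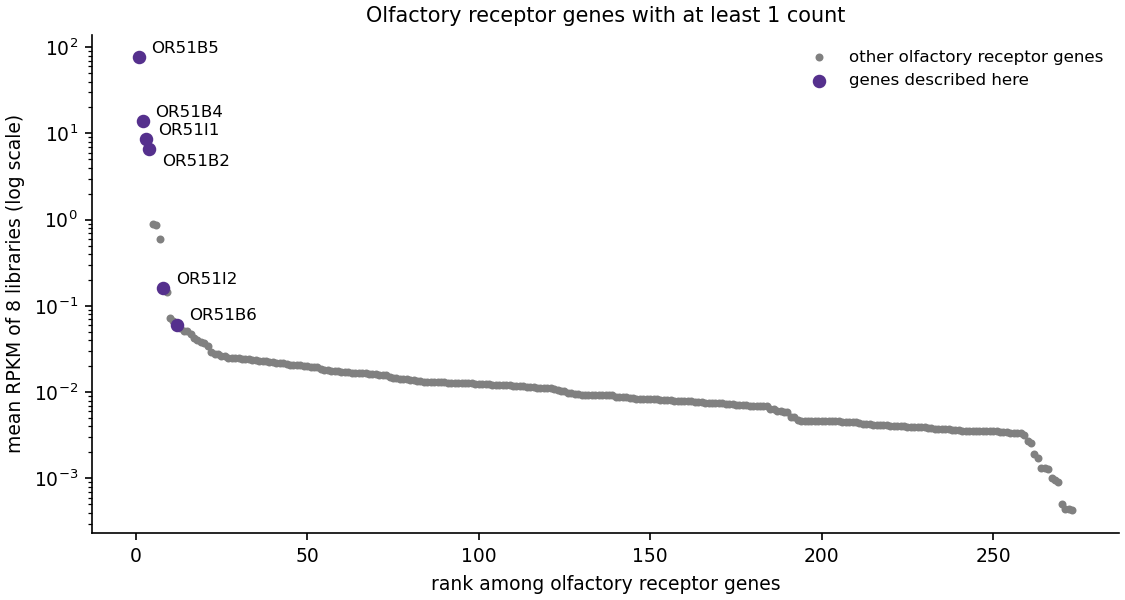
Mean RPKM of 8 libraries on a log scale against rank, for the olfactory receptor genes with at least 1 count (grey; the 6 receptor genes of the set in purple). The 4 leading genes lie between 6.53 and 76.1 RPKM, and the fifth, OR2A4, is at 0.898 RPKM.

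Lenalidomide was then compared with DMSO to ask whether the treatment altered RNA levels at the locus. By edgeR's quasi-likelihood test over 13925 genes, 0 of the 6 members tested had an adjusted p under 0.05, and 1, OR51I1, had an unadjusted p under 0.05. Over all genes tested, 0.0144% were called at the adjusted threshold, 2 genes outside this set, and 4.18% had an unadjusted p under 0.05. In each of the 6 genes the treatments overlapped, where 2.08% of all genes tested had no overlap and 1.24% had all lenalidomide values above those with DMSO. A log2 fold change above 0.5 was found in 1 of the 6, OR51I1, and in 1.19% of all genes tested. DESeq2 and the likelihood ratio test also called 0 members, and each gave 1 at an unadjusted p under 0.05.

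OR51B5 differed by a log2 fold change of 0.04 (95% confidence interval -0.07 to 0.14; unadjusted p = 0.463, adjusted p = 0.999 by edgeR's quasi-likelihood test), from 145 ± 5.88 to 149 ± 3.23 CPM (SD, n = 4 each). The interval corresponds to 0.953-fold to 1.11-fold. HBE1 had a log2 fold change of 0.03 (-0.16 to 0.21) and HBG2 of -0.02 (-0.18 to 0.14), intervals that in fold terms run from 0.897 to 1.16 and from 0.884 to 1.10. OR51B4 had a log2 fold change of 0.02 (-0.14 to 0.17). For these 4 genes the interval included 0, and the sign for HBE1, HBG2 and OR51B4 changed when DMSO replicate 3 was left out. OR51B2 had a log2 fold change of 0.24 (-0.14 to 0.61), from 6.31 ± 0.501 to 7.47 ± 2.45 CPM. Without lenalidomide replicate 4 it was 0.02.

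OR51I1 had a log2 fold change of 1.04 (95% confidence interval 0.27 to 1.81; unadjusted p = 0.0115, adjusted p = 0.999 by edgeR's quasi-likelihood test), from 5.69 ± 1.93 to 11.8 ± 7.97 CPM (SD, n = 4 each). It thus failed the correction over all genes. Lenalidomide replicate 4 decided the size. Without that library the log2 fold change was 0.48 and the unadjusted p was 0.0632, and over the 8 fits that each omit 1 library it ran from 0.48 to 1.29. Two-sided exact permutation tests of the 3 members under the filter that had counts gave p = 0.229 for OR51I2, p = 0.543 for OR51B6 and p = 1 for HBB, and HBG1 had no counts to compare.

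**Figure D4:**
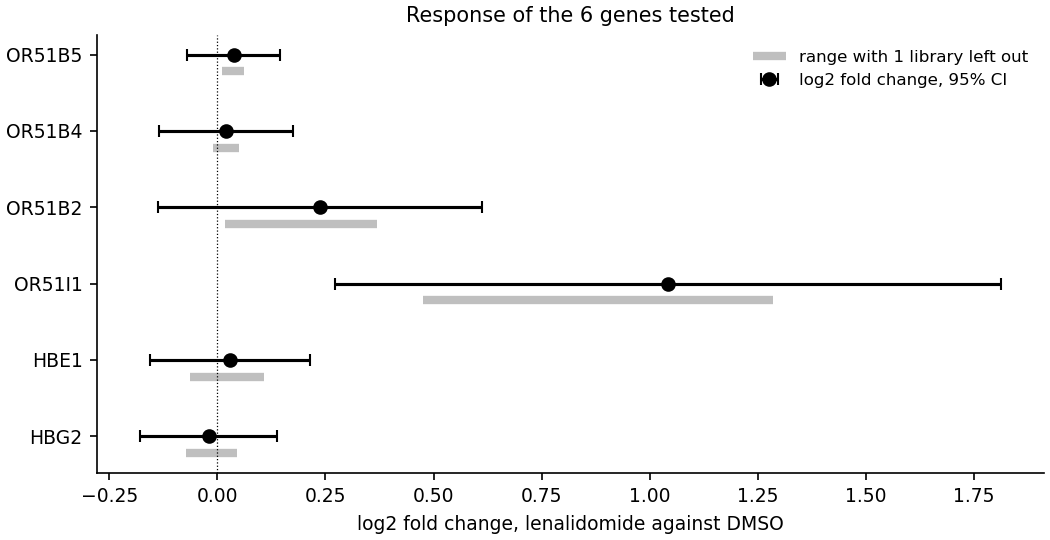
Log2 fold change of lenalidomide against DMSO for the 6 genes tested (points, with 95% confidence intervals) and, in grey, its range over 8 fits that each omit 1 library. The intervals of OR51B5, OR51B4, OR51B2, HBE1 and HBG2 include 0, and that of OR51I1 runs from 0.27 to 1.81.

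The level of OR51I1 was set beside a property of the whole library. The number of olfactory receptor genes outside the set with at least 1 count was 24, 67, 77 and 97 in the DMSO libraries and 70, 32, 62 and 170 in the lenalidomide libraries. DMSO replicate 1, with the fewest, had the lowest OR51I1 value, and lenalidomide replicate 4, with the most, had the highest. Between these extremes the order was not kept throughout. Lenalidomide replicates 1 and 3, with 70 and 62 such genes, had 9.53 and 8.91 CPM of OR51I1. DMSO replicates 2, 3 and 4, with 67, 77 and 97, had 5.19, 6.08 and 8.08 CPM. As a description over 8 libraries, the correlation of log2 values was 0.86 for OR51I1, 0.63 for OR51B2, 0.15 for OR51B5, 0.03 for HBE1, 0.02 for OR51B4 and -0.34 for HBG2. The rank correlation, which the single high library weighs on less, was 0.69 for OR51I1, 0.43 for OR51B2 and 0.24 for OR51B5. Lenalidomide replicate 4 was also the library with the smallest total and the most genes with counts, 19568 against 16953 to 18476 in the others. OR52D1, on the other strand and closest to the distal start, had a similar profile, with 0.428, 0.496, 0.321 and 0.871 CPM with DMSO and 0.973, 0.302, 1.37 and 2.67 CPM with lenalidomide. What part this library property had in the OR51I1 difference was not tested.

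**Figure D5:**
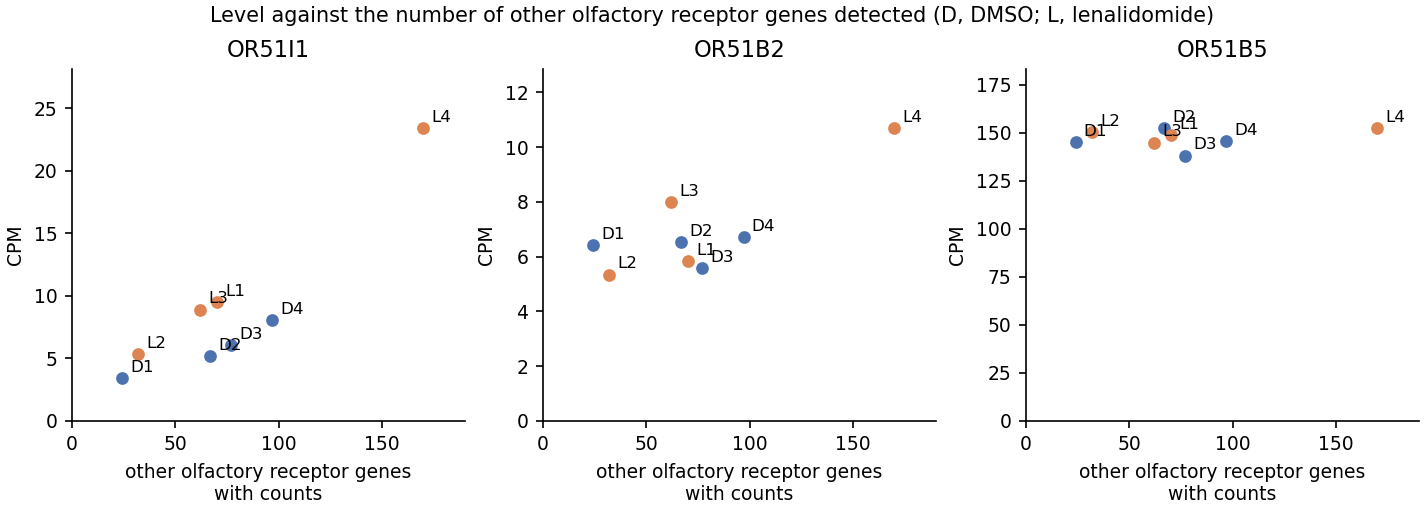
CPM of OR51I1, OR51B2 and OR51B5, each on an axis from 0, against the number of olfactory receptor genes outside the set with counts in the same library (D, DMSO; L, lenalidomide, with replicate numbers). OR51I1 is lowest in D1, with 24 such genes, and highest in L4, with 170, whereas OR51B5 stays between 138 and 153 CPM.

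Markers of red cell precursors were then examined, since globin RNA is typical of those cells. Of 12 erythroid markers, 9 did not pass the filter. AHSP, which encodes the chaperone of free alpha chains, was at 0 in all 8 libraries. GYPB, SLC4A1, ALAS2 and EPB42, which encode red cell membrane proteins and, for ALAS2, the erythroid 5-aminolevulinate synthase, had at most 1 count in a library. TFRC, the transferrin receptor that dividing cells in general use, stood at 144 RPKM, and EPOR, the erythropoietin receptor, at 1.23 RPKM. The summed level of the list was 737 to 809 CPM with DMSO and 710 to 854 CPM with lenalidomide, nearly all of it TFRC, which had means of 767 and 758 CPM. ANK1, also tested, stood at 0.0741 RPKM. Of the 3 markers tested, 0 passed, and the median log2 fold change was -0.03. The epithelial markers EPCAM, KRT8, KRT18 and KRT19 were at 348, 212, 213 and 568 RPKM, and CDX2 and KRT20, which mark intestinal epithelium, at 3.53 and 1.43 RPKM. VIL1, LGALS4 and CEACAM5, which are also used as markers of colon epithelium, had at most 2 counts in a library. Of the 7 epithelial markers tested, 0 passed (median 0.03). CDH1, at 12.0 RPKM, had the smallest p of them (log2 fold change 0.06, unadjusted p = 0.333, adjusted p = 0.999 by edgeR). Alpha-type and other globins had few counts. HBA2, HBZ, HBM and HBQ1 had no count, HBA1 and NGB 1 count each over 8 libraries, and MB and CYGB at most 9 and 7 counts in a library. Of the remaining beta-locus genes, HBD and the pseudogene HBBP1 had at most 4 counts in a library.

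Regulators of globin genes were mostly measurable. Among the factors of the locus control region and of chromatin loops, GATA1 had no count, and KLF1, the erythroid activator of HBB, had at most 1 per library and TAL1 at most 5. NFE2 and LMO2, which also act at the locus in red cell precursors, passed the filter with 10 to 25 and 41 to 78 counts per library. GATA2 and LDB1 of the same list passed it at higher levels, GATA2 with 270 to 401 counts per library (2.65 RPKM) and LDB1 at 20.4 RPKM. The cohesin subunits RAD21, SMC3 and STAG2 stood at 325, 82.0 and 59.9 RPKM. Of 14 genes tested in this list 0 passed (median log2 fold change -0.01), and NIPBL, the cohesin loader, had the smallest p (log2 fold change 0.30, unadjusted p = 0.0152, adjusted p = 0.999 by edgeR). In the list of globin regulators, the chromatin enzymes CHD4, KDM1A and DNMT1 led with 139, 120 and 86.7 RPKM. BCL11A, the repressor of fetal globin, had 0.0685 RPKM with a log2 fold change of 0.68 (unadjusted p = 0.0421, adjusted p = 0.999 by edgeR), and IKZF1, a known target of the drug, had at most 3 counts. Of 21 tested here 0 passed, with a median of 0.02, beside 0.0025 over all genes tested.

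The list for haem synthesis held its enzymes, the transporter genes SLC25A38 and FLVCR1 and the haem-degrading HMOX1. All 11 were tested and 0 passed (median -0.01). CPOX, ALAS1 and UROD led with 178, 25.5 and 23.2 RPKM. CPOX, which oxidizes coproporphyrinogen, had the smallest p, with a log2 fold change of -0.16 (unadjusted p = 0.0157, adjusted p = 0.999 by edgeR). Of the genes of odour signalling, 6 of 13 were tested and 0 passed (median -0.01). ADCY3, RIC8B and REEP1 were highest with 10.3, 4.97 and 4.33 RPKM, and RIC8B also had the smallest p of the list, with a log2 fold change of 0.05. OMP, a marker of mature olfactory neurons, had 1 count in the whole series, and the channel gene CNGA2 likewise. Of 16 neighbours on 11p15.4 other than olfactory receptor and globin genes, 13 were tested and 0 passed (median -0.03). RRM1, TAF10 and ILK led with 161, 36.7 and 19.8 RPKM, and TAF10 had the smallest p, with a log2 fold change of 0.14. UBQLNL, which lies beyond the distal start at -10.8 kb on the map, had at most 6 counts in a library. At an unadjusted p under 0.05 by edgeR, the lists of globin regulators, of loop factors and of haem synthesis held 1 gene each and the erythroid, epithelial, odour signalling and neighbour lists 0. Of all 390 olfactory receptor genes, 7 were tested and 2 had such a p, OR51I1 and OR52D1. DESeq2 and the likelihood ratio test also called 0 genes of these lists at the adjusted threshold.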

How the data were processed

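Total RNA libraries (ScriptSeq v2) of 8 Hct116 samples were aligned by the authors to hg19 with QuasR, allowing spliced reads, and the deposited values are raw read counts per gene of the UCSC known gene models, without normalization, beside the exonic width of each gene. QuasR was run with default parameters. Its version and the strand setting are not given in the sources used here.

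All fits used edgeR 4.0.16 under R 4.3.3. Genes were kept by filterByExpr (minimum count 10, minimum total 15), which left 13925 genes and 6 of the 10 members. TMM factors, the quasi-likelihood test and Benjamini-Hochberg adjustment over all genes tested were used, with a threshold of 0.05, and intervals at 95% come from the coefficient and its F statistic. RPKM are CPM divided by the deposited width. Members under the filter were compared by exact permutation tests of CPM. Correlations used log2 values with a pseudocount of 0.5 CPM. The fits were tested on simulated counts. Library totals, between 28218471 and 37473413 counts, set the counting error, and PCR duplicates cannot be told apart, so that limits cover counting error only. No pair of libraries within a treatment was as close as counting noise alone allows (chi-square per degree of freedom at least 5.82).

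Members and lists were chosen with earlier results of these data known. Named genes are the members, the 5 genes most correlated with OR51B5, the 5 next olfactory receptor genes by RPKM and, per list, genes past the threshold, the smallest p and up to 3 highest by RPKM. Other named genes were chosen after their values were seen. Positions and sequences come from GRCh37 with GENCODE release 44 annotation. Some items of the locus are not reported here. Alternatives were RLE scaling, DESeq2 1.42.0, the likelihood ratio test, both other filters, a replicate block, leaving out each library and, chosen after seeing the data, thinning to the smallest total.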

Additional observations from a re-analysis of the deposited data

Results flagged for a closer look

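Among 17 groups of 4 values, HBB with lenalidomide held 1 value apart from 3 values of 0. It was at 0.0302 CPM, a single count, in lenalidomide replicate 2, and at 0 in the other 3 libraries. Beside 3 values of 0 any single count stands apart in this way, so that the usual chance rate of about 1 in 20 groups does not apply, and 1 count is within the 3 counts that a count of 0 allows.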

How the results depend on the processing

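OR51B5 kept its direction and stayed short of the threshold in all 15 alternatives, and members and listed genes past an adjusted p of 0.05 stayed at 0. The count over all genes, 2, was 4 with no filter beyond 1 count, 6 with the replicate block, 9 by DESeq2 and 12 by the likelihood ratio test, and lay between 1 and 2 over the 8 fits that each omit 1 library. The cause was not tested. Same-numbered libraries correlated at 0.052, -0.0076, 0.0033 and 0.31 in their deviations, against -0.34 to 0.18 for other pairs. The pair numbered 4 was above all other pairs and the remaining 3 pairs were not, and the labels tie no number to a shared culture or isotope label, so that the numbers were not taken to pair the libraries. With the replicate block the smallest adjusted p of a member, OR51I1, was 0.0976 by edgeR, beside 0.342 to 0.9999 over those 8 fits, 0.354 with no filter beyond 1 count and 0.638 with the likelihood ratio test. Of 90 values of the tested members, 85 kept direction and side and 5 changed sign. HBE1 was at -0.063 without DMSO replicate 3, HBG2 at 0.045 without DMSO replicate 3 and at 0.010 without lenalidomide replicate 3, and OR51B4 at -0.0090 without DMSO replicate 3 and at -0.0076 without lenalidomide replicate 4. Across these fits log2 fold changes ran from -0.063 to 0.11 for HBE1, from -0.072 to 0.045 for HBG2, from -0.0090 to 0.050 for OR51B4, from 0.011 to 0.061 for OR51B5 and from 0.017 to 0.37 for OR51B2. Without lenalidomide replicate 2, OR51I2 differed by 0.151 CPM with an exact permutation p of 0.0286, the smallest that 4 against 3 libraries allow. With any other library left out, the same test gave p of 0.229 to 0.429 for OR51I2. OR51B2 without lenalidomide replicate 2 had an unadjusted p of 0.0347 by edgeR. HBG1 and HBG2 summed gave 58.8 CPM, the level of HBG2 alone. Depth limits OR51I2, OR51B6, HBB and HBG1, which had at most 11 counts in a library.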

Other observations

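The genes whose levels followed OR51B5 most closely over the 8 libraries were UNK, RPN2, PCDHAC1, TCEB3-AS1 and EOMES, with Pearson correlations of log2 CPM of 0.99, 0.96, 0.96, 0.94 and 0.93. They are the highest of 13924 genes compared over 8 points that share their libraries, and are given as a description. HBE1, which shares the distal exon with OR51B5 in the annotation, ranked 243 with a correlation of 0.79. HBG2, which has a long transcript from nearly the same place, ranked 11342 with -0.43. OR51B4, OR51B2 and OR51I1 ranked 3372, 3541 and 3860, with 0.38, 0.37 and 0.34.

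Within a library and by the deposited widths, the ratio of HBE1 to OR51B5 per length was 0.857 to 1.11. That of OR51B4 to OR51B5 was 0.169 to 0.196. The ratio of HBE1 to HBG2 by the deposited widths ran from 1.80 to 3.11, with the lowest value in DMSO replicate 3. Means of HBE1 to OR51B5 were 1.002 with DMSO and 0.9997 with lenalidomide, and they too hold for the deposited widths only.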
